A study of Mus musculus with 2 samples.

Results

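The 6 muscle miRNA genes *Mir1a-1*, *Mir1a-2*, *Mir133a-1*, *Mir133a-2*, *Mir208a* and *Mir208b* were taken by name from the 2202 miRNA genes that GENCODE M21 annotates on the mouse genome GRCm38/mm10. Every ATAC-seq peak within 20 kb of their hairpins was collected. ATAC-seq finds open chromatin from the places where a transposase can cut the DNA and attach adapters. The samples were wildtype (WT) FVB mouse embryonic hearts at E11.5, 49 to 51 somites, in 2 biological replicates that were each made from a pair of hearts. Both replicates carry the same genotype and received no treatment, so samples were not compared between conditions, and each value below describes the whole heart with all of its cell types. In such tissue, fewer open copies in every cell and fewer cells with open copies cannot be told apart. The measurement used throughout is the fold enrichment that the authors' peak caller gave at the highest point of a peak, its summit, which divides the reads piled up there, plus 1, by the average expected over the genome, plus 1.

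Muscle miRNAs are short RNAs cut from hairpins in longer transcripts. They bind mRNAs through the seed near their 5′ end and lower the output of the bound messages. miR-1 and miR-133a are made together from hairpin pairs that lie close to each other in bicistronic transcripts, and are abundant in heart and skeletal muscle. miR-1 is known to favour muscle differentiation, and both miRNAs are known to limit proliferation of cardiomyocytes, while miR-133a is known to favour proliferation of skeletal myoblasts. miR-208a and miR-208b, called myomiRs, lie in introns of the myosin heavy chain genes *Myh6* and *Myh7*, and are expressed with them. The myosin hosts differ in time and place: *Myh7* encodes the slow β-myosin that prevails in the embryonic ventricle and *Myh6* the fast α-myosin of the atria and of the adult mouse heart.

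The mature miRNAs of *Mir208a* and *Mir208b* carried the same seeds on both arms. They are shown with their seed, bases 2 to 8, in capitals, because the seed is what makes the products of 2 separate hairpins members of one family. *Mir499*, the third myomiR, is shown beside them. The sequences are those of RefSeq for GRCm38.p6, whose table held mature sequences for 3 of the 6 miRNA genes.
mmu-miR-208a-3p: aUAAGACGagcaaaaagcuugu
mmu-miR-208b-3p: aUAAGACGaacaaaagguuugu
mmu-miR-499-5p: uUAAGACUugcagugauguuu
mmu-miR-208a-5p: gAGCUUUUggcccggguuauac
mmu-miR-208b-5p: aAGCUUUUugcucgcguuaugu
miR-208a-3p and miR-208b-3p were identical at 19 of 22 positions, and their 5p arms at 16 of 22. miR-499-5p matched 6 of the 7 seed positions of both these miRNAs.

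The 5p arm of *Mir1a-1* and that of its skeletal muscle relative *Mir206* were identical at 20 of 23 positions and at 6 of 7 seed positions.
mmu-miR-1a-1-5p: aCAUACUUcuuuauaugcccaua
mmu-miR-206-5p: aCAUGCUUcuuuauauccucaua

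Together the windows around the 6 hairpins held 46 peaks of replicate 1 and 33 of replicate 2. The genes form 3 loci of 2 hairpins each, and windows of neighbours overlap, so that 1 peak can count for both members of a pair. Stretches covered by a peak in both replicates, called shared regions here, numbered 28. A shared region carries the fold enrichment of the peaks that cover it. In 7 of the 28, at least 1 of the summits lay outside the shared stretch, so that the value was reached beside it. No peak that lacked a counterpart was high: the 22 such peaks of replicate 1 reached at most 5.43, and the 6 of replicate 2 at most 4.02. The mean of both replicates was 10 or more in 6 of the 28 shared regions, and below 5 in 15.

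Fold enrichment was higher in replicate 1 in 24 of the 28 shared regions. Over all 98924 shared regions of the genome this was so in 66.2%. The 24 include chr14:54966317-54967625 and chr14:54938697-54939852, which had equal summit reads in both replicates, 50 and 27. Their values differ only through the genome average in the divisor. With both summits inside the region, which held for 21 of the 28, the ratio of replicate 1 to replicate 2 ran from 0.81 to 1.75 with a median of 1.16, beside a median of 1.08 over 87033 such regions of the genome. The central 90% of those ratios spanned 0.756 to 1.62. Starts of marker genes with a shared region were set beside these. Of cardiac muscle genes, 8 of 8 were higher in replicate 1, with a median ratio of 1.203 and sums of fold enrichment of 136 and 110, but *Myh6* and *Myh7* among them are also among the 28 regions. Of endocardium and endothelium, 2 of 3 were higher in replicate 1, with a median ratio of 1.33 and sums of 38.3 and 32.7. Of epicardium, 2 of 3 were higher in replicate 1, with a median of 1.08 and sums of 51.1 and 47.5. Of red blood cells, 1 of 3 was, with a median of 0.842 and sums of 55.4 and 59.6. The remaining lists held 0 of 1 (skeletal muscle), 1 of 2 (nervous system) and 1 of 1 (liver). The genome-wide background that enters each value was 2.68 reads in replicate 1 and 2.98 in replicate 2. The part of cell composition and of background in the replicate differences was not tested.

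**Figure D1:**
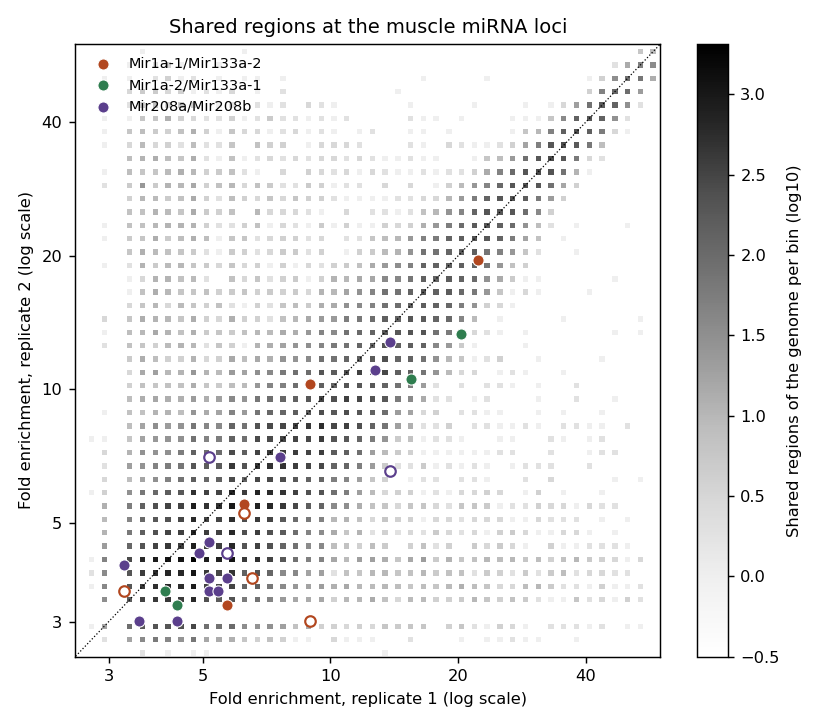
Fold enrichment in replicate 1 (x axis) against replicate 2 (y axis), both on log scales, for the 28 shared regions of the 3 loci (coloured), over the number of shared regions of the genome in each bin (grey). Filled points have both summits inside the region, open points do not, and the dotted line marks equal values; 24 of the 28 points lie below it.

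*Mir1a-1* and *Mir133a-2* lie 9.26 kb apart on the plus strand of chromosome 2, at chr2:180389048-180389124 and chr2:180398379-180398482. GENCODE M21 places both between genes, with the nearest protein-coding starts 54.3 kb (*Gata5*) and 57.8 kb (*Slco4a1*) away. RefSeq, on the same build, places both in intron 3 of *Mir1a-1hg*, a long noncoding RNA of 4 exons that serves as their host transcript. The locus held 12 peaks in each replicate and 9 shared regions, all 9 within reach of both hairpins.

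The highest shared region of all 3 loci lay at the start of this host, at chr2:180385117-180386619. Its fold enrichment was 22.3 in replicate 1 and 19.6 in replicate 2, from 81 reads (95% Poisson interval 64.3 to 101) and 77 reads (60.8 to 96.2) at the summits. These intervals cover counting error only. The values of the replicates were close, and 92.6% and 91.0% of all peaks in the respective lists were lower. The summit of replicate 1 was 135 bp from the start of *Mir1a-1hg* and 416 bp from that of *B230312C02Rik*, a long noncoding RNA transcribed the opposite way. The region lay 2429 bp upstream of *Mir1a-1* and 11760 bp upstream of *Mir133a-2*. It was the most GC-rich of the shared regions longer than 3 bp, at 63.0%, beside a median of 50% over all shared regions.

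Next in height at this locus was a region 1320 bp downstream of *Mir133a-2*, at chr2:180399802-180400729, which reaches into the last exon of *Mir1a-1hg*. It was one of the few places higher in replicate 2, with 8.96 in replicate 1 and 10.3 in replicate 2. The third by mean was a stretch of 3 bp beside it, which lay at the edge of the same replicate 1 peak and of a replicate 2 peak of 3.02, and has no summit of its own. The nearest region to *Mir1a-1* was 388 bp downstream, at chr2:180389512-180389867, and was low, with 4.89 and 4.27. Between the hairpins, the regions stayed between 3.26 and 6.25 in replicate 1 and between 3.27 and 5.53 in replicate 2. The start of the host was thus the highest place of the locus in each replicate.

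*Mir1a-2* and *Mir133a-1* lie 2.51 kb apart on the minus strand of chromosome 18, at chr18:10785481-10785552 and chr18:10782909-10782976. Both are in an intron of *Mir133a-1hg*, an antisense host transcript on their own strand, and in intron 12 of the 21-exon *Mib1* on the other strand. *Mib1* encodes a ubiquitin ligase that Notch ligands need for signalling. *Mir1b*, a further miRNA gene, is annotated on the plus strand over *Mir1a-2*. The start of *Mib1* is the nearest protein-coding start, 59.9 kb from *Mir1a-2* and 57.4 kb from *Mir133a-1*, beyond the window used here, and its shared region reached 34.2 in replicate 1 and 32.9 in replicate 2.

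This locus had the fewest shared regions, 4, but 2 of them were high. The first, chr18:10787432-10788162, lay 1880 bp upstream of *Mir1a-2* and 4456 bp upstream of *Mir133a-1*. Its fold enrichment was 20.4 in replicate 1 and 13.3 in replicate 2, from 74 reads (58.1 to 92.9) and 52 reads (38.8 to 68.2). Replicate 1 was the higher one and the counting intervals overlap.

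The other, chr18:10784147-10784671, lay between the hairpins, 810 bp downstream of *Mir1a-2* and 1171 bp upstream of *Mir133a-1*, and was the shared region nearest to both. It had 15.5 in replicate 1 and 10.6 in replicate 2, from 56 reads (42.3 to 72.7) and 41 reads (29.4 to 55.6). The summits of the replicates were 6 bp apart there and 23 bp apart in the first region. The ratios of replicate 1 to replicate 2, 1.53 and 1.47, lay above 95% of those of the 24019 shared regions with a mean of 10 or more and both summits inside, for which the 95th percentile was 1.41. The other shared regions of this locus were low, at 4.07 and 3.52 for one and at 4.35 and 3.27 for the other. The annotated start of *Mir133a-1hg* had no shared region within 1 kb. In replicate 1 alone the locus had 9 peaks and in replicate 2 alone 5. At 37.3% GC, the region between the hairpins was the least GC-rich of the 28.

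*Mir208a* and *Mir208b* lie 26.6 kb apart on the minus strand of chromosome 14, at chr14:54949060-54949142 and chr14:54975700-54975776. *Mir208a* is in intron 29 of the 39-exon *Myh6*, 17.5 kb from the start of that transcript, and *Mir208b* is in intron 31 of the 41-exon *Myh7*, 18.9 kb from its start. The nearest protein-coding starts were those of *Cmtm5*, 12.8 kb from *Mir208a*, and of the predicted *Gm17428*, 1.16 kb from *Mir208b*. By shared regions in the 20 kb windows the locus was the densest of the 3, with 2.25 per 10 kb beside 1.82 on chromosome 2. Of its 15 shared regions, 10 had a mean below 5. The order depends on the counting. Within 10 kb *Mir208a* had 4 and *Mir208b* 3 shared regions, while *Mir1a-1* had 6 and *Mir133a-2* 8. Replicate 2 alone had 16 peaks in the 66.7 kb here and 12 in the 49.4 kb on chromosome 2.

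The highest shared region lay on the start of *Myh6*, at chr14:54966317-54967625. Fold enrichment was 13.9 in replicate 1 and 12.8 in replicate 2, from 50 reads in each (37.1 to 65.9). The start of *Myh7*, at chr14:54994367-54995081, had 12.8 and 11.1, from 46 reads (33.7 to 61.4) and 43 reads (31.1 to 57.9). The counting intervals of the myosin starts overlap in each replicate. Both starts were lower than that of *Mir1a-1hg* in both replicates, and each was near the middle of protein-coding genes: of 21938 such gene starts, 51.5% had a lower value than *Myh6* and 49.5% a lower value than *Myh7*, those without a region counted as 0. Among the gene starts with a region the median was 24.3, above both myosin starts. A shared region within 1 kb was found at 63.5% of these gene starts.

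The third region by mean, chr14:54967677-54969846, covered the start of *Mhrt*, a noncoding RNA antisense to *Myh7* that starts between the myosin genes. In replicate 1 it belonged to the same broad peak as the start of *Myh6*, whose summit gave the 13.9, and in replicate 2 it was a peak of its own with a lower 6.54. A region at the end of *Cmtm5*, chr14:54938697-54939852, had 7.61 and 7.04, from 27 reads in each replicate (17.8 to 39.3). Its summit lay past the end of *Cmtm5* and beyond the 3′ end of *Myh6*. The shared regions nearest to the hairpins were among the lowest: 3.53 and 3.02 for *Mir208a*, 2326 bp downstream in an exon of *Myh6*, and 4.35 and 3.02 for *Mir208b*, 5114 bp downstream in an intron of *Mhrt*.

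The promoters of the myosin hosts and of *Mhrt* are shown because they lie inside shared regions over their whole length. The window around the summit between *Cmtm5* and *Myh6* is shown as an example outside these promoters, chosen after its values were seen. Its shared region lies within 1 kb of an annotated start of *Cmtm5*. A replicate 2 peak beside it, at chr14:54940049-54940402, holds the start of the antisense gene *Gm49130*. Capitals mark matches on either strand to motifs of transcription factors of the heart. The TEAD letters were GGAATG and the TBX letters were AGGTGT. The GATA letters were AGATAA, and those of the E-box, which basic helix-loop-helix factors bind, were CAGCTG. The NKX2-5 letters were TNAAGTG, where N is any base. The MEF2 and SRF (CArG) motifs were searched too. Promoters are those of RefSeq and the window is from the reference genome, GRCm38.p6, which is not the FVB strain of the samples.
*Myh6* promoter, chr14:54966558-54966857, minus strand: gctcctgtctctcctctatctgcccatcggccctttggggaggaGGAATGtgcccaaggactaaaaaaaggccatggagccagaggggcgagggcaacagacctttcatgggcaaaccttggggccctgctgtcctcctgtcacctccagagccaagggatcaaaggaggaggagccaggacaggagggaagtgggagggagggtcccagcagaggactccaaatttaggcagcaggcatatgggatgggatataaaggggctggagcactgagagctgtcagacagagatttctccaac
*Myh7* promoter, chr14:54994577-54994876, minus strand: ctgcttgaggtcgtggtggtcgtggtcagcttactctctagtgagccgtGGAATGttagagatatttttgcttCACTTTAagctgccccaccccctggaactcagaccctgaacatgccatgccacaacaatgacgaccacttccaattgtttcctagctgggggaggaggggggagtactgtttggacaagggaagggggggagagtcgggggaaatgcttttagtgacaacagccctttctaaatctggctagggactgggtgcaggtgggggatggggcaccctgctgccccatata
*Mhrt* promoter, chr14:54968537-54968836, plus strand: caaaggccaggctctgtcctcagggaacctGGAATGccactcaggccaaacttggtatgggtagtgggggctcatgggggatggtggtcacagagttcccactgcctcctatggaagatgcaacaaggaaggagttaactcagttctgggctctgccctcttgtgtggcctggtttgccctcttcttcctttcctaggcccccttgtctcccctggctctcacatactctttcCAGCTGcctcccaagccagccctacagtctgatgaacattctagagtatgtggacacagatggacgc
window between *Cmtm5* and *Myh6*, chr14:54939555-54939755, plus strand: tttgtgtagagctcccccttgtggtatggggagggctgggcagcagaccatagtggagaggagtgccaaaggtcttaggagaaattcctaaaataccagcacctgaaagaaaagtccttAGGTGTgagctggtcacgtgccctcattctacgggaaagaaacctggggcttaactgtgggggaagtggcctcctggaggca
Each of the 3 promoters held 1 match to the TEAD letters, which 14.7% of 32851 promoters of this length hold. The *Mhrt* promoter also held 1 match to the E-box letters, found in 16.3% of promoters. The *Myh7* promoter also held 1 match to the NKX2-5 letters, found in 11.54% of promoters. The window between *Cmtm5* and *Myh6* held 1 match to the TBX letters, found in 8.58% of windows of 201 bp around the summits of all shared regions.

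The summit windows of the 3 loci came to 24 distinct windows of 201 bp, set beside 95480 over the genome. NKX2-5 letters were found in 5 of the 24 and in 11.6% of all windows, and TEAD letters in 5 of the 24 and in 14.8%. GATA letters were found in 2 of the 24 and in 17.3% of all windows, E-box letters in 4 and in 17.9%, and TBX letters in 2 and in 8.58%. The MEF2 motif was found in 1 of the 24 and in 3.73% of all, and the CArG motif, bound by SRF, in 0 and in 1.22%. A match describes letters only, and neighbouring summits can share a window.

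**Figure D2:**
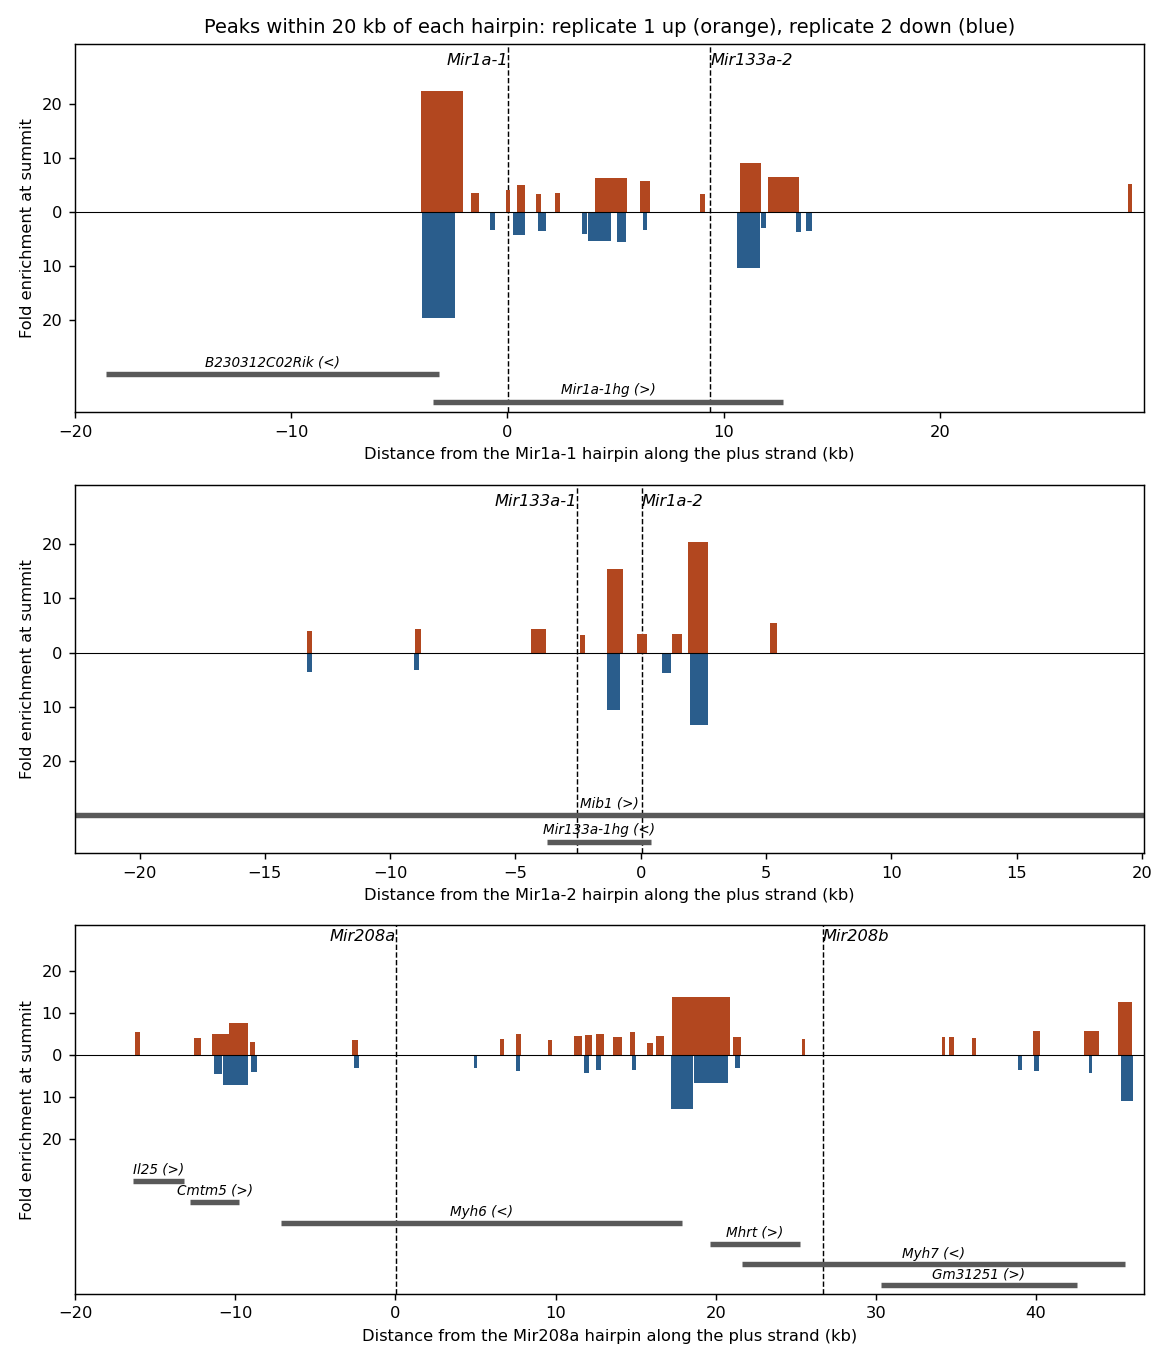
Peaks within 20 kb of each hairpin at the 3 loci. Bars span each peak along the x axis (distance from one hairpin in kb) and their height is its fold enrichment, upwards for replicate 1 and downwards for replicate 2; dashed lines mark the hairpins and grey lines the genes, with their direction of transcription. The tallest bars stand at the start of *Mir1a-1hg* (22.3 and 19.6), on both sides of *Mir1a-2* and at the starts of *Myh6* and *Myh7*.

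The hairpins themselves were not covered by a shared region in any of the 6 cases, and over all miRNA genes 11.2% were. Replicate 1 alone had a low peak of 4.07 over the *Mir1a-1* hairpin and one of 3.53 over *Mir1a-2*, and replicate 2 had none over a hairpin. A shared region lay within 1 kb of 2 of the 6, *Mir1a-1* and *Mir1a-2*, beside 19.9% of all miRNA genes. The hairpins are unique in sequence: every stretch of 50 bp, the read length, that overlaps one of the 6 hairpins occurs once in the reference genome. Of the stretches that start in exons of *Myh6* and *Myh7*, which are near-identical in places, 81.5% and 85.5% occur once, so that open chromatin in the myosin exons can be missed.

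Of the 6 genes, 6 had a shared region within 20 kb, where 68.9% of all miRNA genes had one. At least 5 shared regions were found for 4 of the 6, all but the *Mir1a-2*/*Mir133a-1* pair, and for 18.2% of all miRNA genes. *Mir208a* had 11 and *Mir208b* 10, more than 98.14% and 96.96% of miRNA genes had. *Mir1a-1* and *Mir133a-2* had 9 each, more than 95.5%, and *Mir1a-2* and *Mir133a-1* had 4 each, more than 73.4%. These counts depend on the window and on what is counted as shared. Within 10 kb *Mir208a* had 4 and *Mir208b* 3, fewer than the 6 of *Mir1a-1* and the 8 of *Mir133a-2*. Where 50% of each peak had to overlap, *Mir1a-1* and *Mir133a-2* had 3 each, fewer than the 4 of *Mir1a-2* and *Mir133a-1*. In that case 2 of the 6 genes reached 5. At a q-value limit of 1e-10 each gene had 2 or 3 and none of the 6 reached 5, while with either list alone all 6 did. The share of all miRNA genes with at least 5, 18.2%, was not taken at these other settings. Whether the 6 genes moved with all miRNA genes was therefore not tested. The median number of shared regions within 20 kb was 9 over the 6 genes and 2 over all miRNA genes.

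In height the 6 genes lay nearer the middle of all miRNA genes. A region within the highest 10% of both lists was found for 2 of the 6, *Mir1a-1* and *Mir133a-2*, and for 30.7% of all. The highest mean fold enrichment within 20 kb was 20.9 for these, 16.8 for *Mir1a-2* and *Mir133a-1* and 13.3 for *Mir208a* and *Mir208b*, above that of 71.9%, 66.8% and 62.3% of miRNA genes. These heights depend on the window: within 10 kb the value was 9.64 for *Mir133a-2* and 7.32 for *Mir208a*, and within 50 kb it was 20.3 for *Mir208a* and 42.9 for *Mir208b*. Within 20 kb it was the start of *Myh6* for *Mir208a* and *Mir208b*. Among the 1518 miRNA genes with any region in reach, the highest one held a protein-coding start in 46.8%, and at the other 4 genes here it did not. By this height the first pair stood between *Gm22773* (20.98 as a mean) and *Gm25036* (20.94), the next between *Mir6346* (16.9) and *Mir6966* (16.8), and *Mir208a* and *Mir208b* between *Mir5104* (13.4) and *Gm24155* (13.3). These neighbours differed by less than the replicates did.

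**Figure D3:**
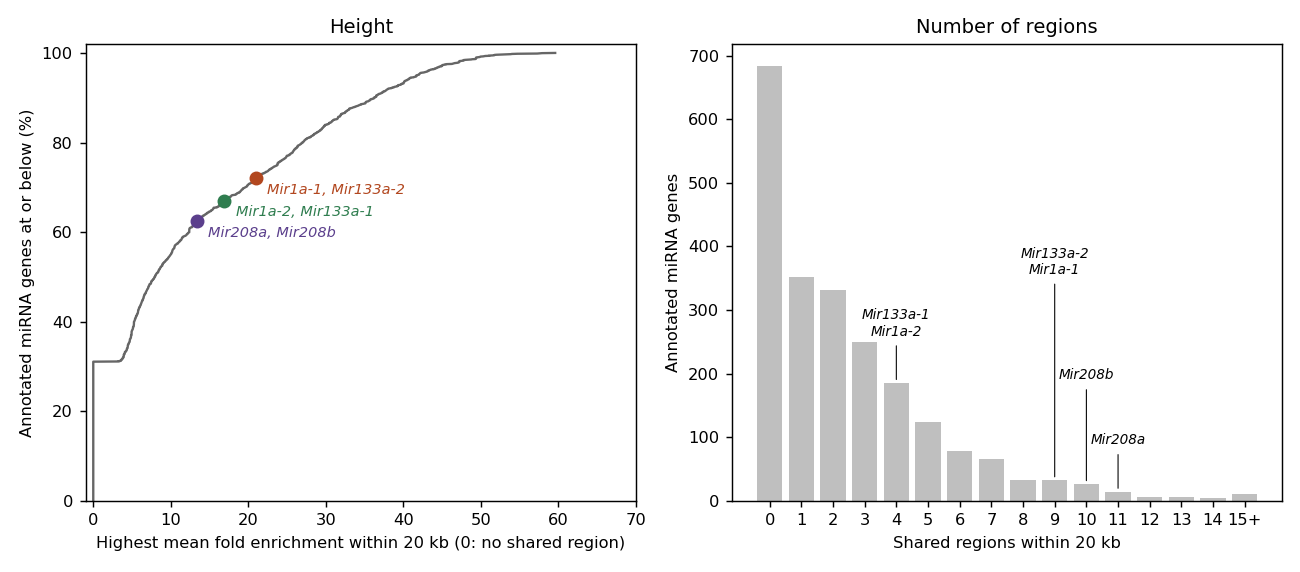
Left, share of the 2202 annotated miRNA genes (y axis, %) whose highest mean fold enrichment within 20 kb is at or below the value on the x axis, with the 6 muscle miRNA genes as points. Right, number of miRNA genes (y axis) by shared regions within 20 kb (x axis). The 6 genes lie at 13.3 to 20.9 in height, and 4 of them have 9 or more regions.

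The relatives with like seeds differed from each other. *Mir499*, which lies in an intron of the slow myosin gene *Myh7b*, had 9 shared regions and a highest value of 20.6 in replicate 1 and 23.6 in replicate 2. *Mir206* and *Mir133b*, the skeletal muscle pair related to miR-1 and miR-133a, shared a highest value of 5.70 and 6.54 among 4 regions each, lower in both replicates than that of each of the 6 genes. The starts of skeletal muscle genes were mostly without a shared region: *Myog*, *Myf5* and *Pax7* had none within 1 kb and *Myod1* had one of 4.89 and 5.53.

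miRNA genes known from other cell types that a heart holds spanned a wide range. *Mir126a* of endothelium had 13 shared regions, the highest with 19.8 and 23.1, on the start of *Agpat2*. *Mir143* and *Mir145a* of smooth muscle had 20 and 21, the highest with 22.3 and 15.3, a replicate difference in the direction seen at *Mir1a-2*. *Mir144* and *Mir451a* of red blood cells reached 20.1 and 29.7, with replicate 2 the higher. Of white blood cells, *Mir142* reached 31.2 and 32.4, on a region that holds the start of *Supt4a*, and *Mir223* had no shared region within 20 kb. Of miRNA genes of other tissues, *Mir375* of the endocrine pancreas had 2 regions, the highest with 6.52 and 7.29, *Mir122* of liver had 1 region of 4.07 and 3.27 and *Mir124a-1* of neurons 1 of 3.26 and 3.27, but *Mir9-2*, also neuronal, reached 26.1 and 26.6. The other 4 neuronal genes lay between these in mean height, from 4.87 for *Mir9-1* to 12.8 for *Mir124a-2*. The miR-302 cluster, known from pluripotent cells, had the highest values of the list, 35.3 and 37.7, on a region that holds the starts of *Larp7* and *Zgrf1*. miRNA genes known from other tissues thus stood both above and below the 6 in height.

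**Figure D4:**
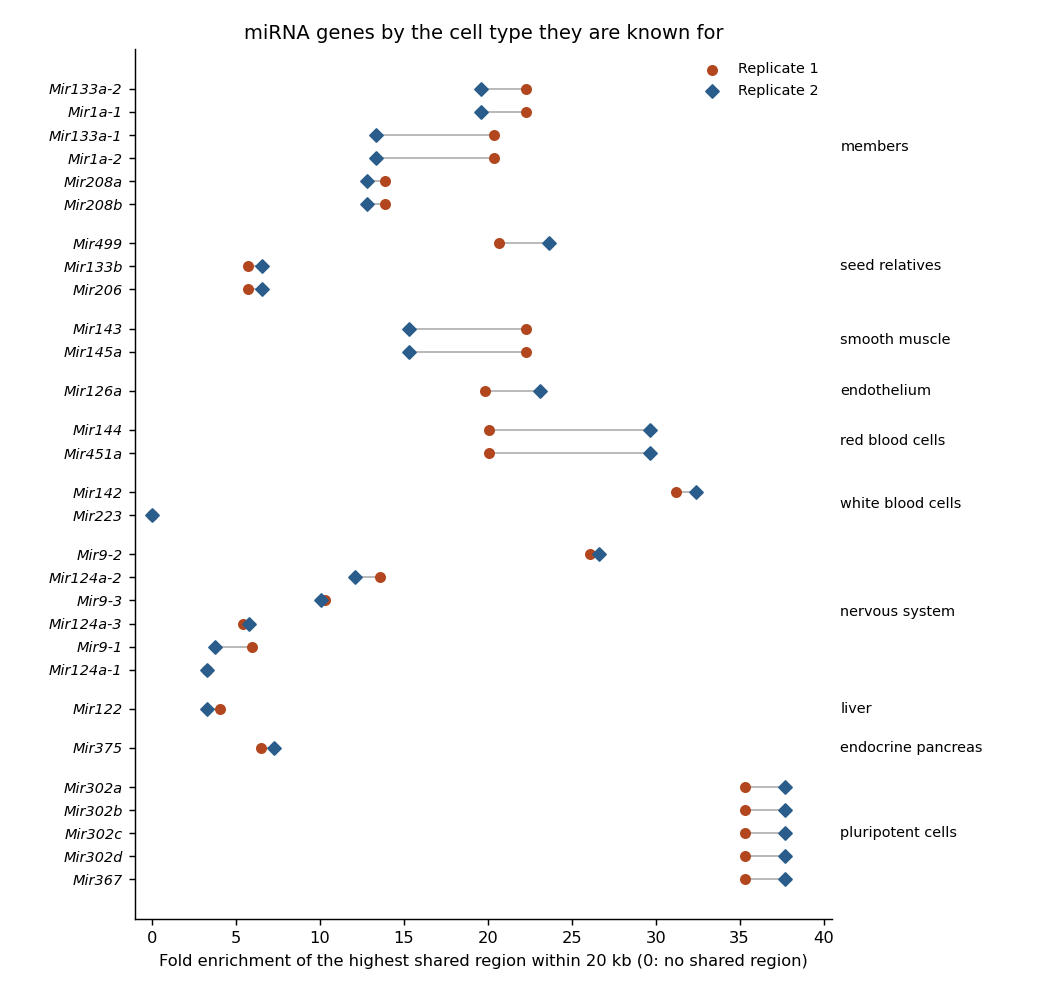
Fold enrichment of the highest shared region within 20 kb (x axis) in replicate 1 (circles) and replicate 2 (diamonds) for the 6 muscle miRNA genes, their relatives and miRNA genes known from other cell types (y axis). The 6 genes lie between 12.8 and 22.3, *Mir206* and *Mir133b* below 7, and *Mir223* at 0, without a shared region.

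Genes that make, control or receive these miRNAs were mostly open at their starts, as were 67.6% of 21938 protein-coding genes when any annotated start was counted. All 9 genes of miRNA processing had a shared region within 1 kb of a start, with means from 12.6 for *Ago4* to 45.1 for *Dgcr8*, whose protein binds the primary transcript for cleavage by *Drosha*. All 11 listed regulators had one too. Among them *Srf*, a partner of *Myocd* at muscle promoters, had 41.02 in replicate 1 and 38.5 in replicate 2, *Myocd* 17.4 and 13.1, *Mef2c* 23.1 in both, *Gata4* 16.03 and 16.34, *Nkx2-5* 11.95 and 9.30, and *Tbx5* the lowest, 5.43 and 4.78. The median over the regulators was 21.7, beside 24.5 over all protein-coding genes with a region at any start.

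Genes described as targets were open in 14 of 15 cases. For miR-1 these were 5 of 5, among them *Hand2*, a transcription factor of ventricle growth, with 25.0 and 22.1, and *Hdac4*, a repressor of MEF2, with 58.7 and 51.0. For miR-133a they were 5 of 5, with *Srf* and the cyclin gene *Ccnd2* at 20.4 and 16.8. For miR-208a they were 4 of 5, with *Med13* at 25.0 and 26.9 and *Sox6* at 13.04 and 11.56. The exception was *Mstn*, myostatin, an inhibitor of muscle growth, which had no shared region within 1 kb of a start in these hearts.

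The heart label was set against marker starts. Of cardiac muscle, 8 of 10 had a shared region within 1 kb of the gene start, with *Tnnt2* at 25.0 and 20.9 and *Actc1* at 25.8 and 22.1. *Nkx2-5* and *Tbx5* had none at the outermost start and one at another annotated start. Endocardium and endothelium had 3 of 4, epicardium 3 of 3 and red blood cells 3 of 4, while skeletal muscle had 1 of 4, nervous system 2 of 4 and liver 1 of 3. Over all protein-coding gene starts the share was 63.5%, and several of these counts were close to it.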

How the data were processed

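ATAC-seq of 2 replicates of E11.5 hearts was used as deposited. Per the methods, the authors used Trim Galore 0.6.6 with Cutadapt on single-end reads of 50 bp, Bowtie2 2.4.2 for mapping (GRCm38/mm10) and SAMtools 1.12 for filtering, and called peaks per replicate with MACS2 without a local background. The largest p-values in the lists, 0.000476 and 0.00104, lie below the p-value limit that the methods state, and all peaks were used. The deposited fold enrichment is a ratio at the summit. The authors' −log10 p and −log10 q values served as limits in alternatives, and the deposited score, the −log10 q value times 10 rounded down in at least 99.9763% of the peaks of each replicate, was not used. Duplicates and reads of low mapping quality had been removed, so repeated sequence is underrepresented.

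Replicate 1 had 118027 peaks and replicate 2 had 114783. Read totals are not part of the lists. Fold enrichment rose in steps of whole reads over a background of 2.68 and 2.98 reads, from which summit reads and exact Poisson intervals were computed. All listed values came out whole within 0.05 reads, and the lowest summit had 9.

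Shared regions are the parts of replicate 1 peaks covered by a replicate 2 peak (bedtools 2.31.1 intersect, at least 1 bp), merged where they touch. Distances are from region to hairpin of GENCODE M21, 0 where they overlap. Where several peaks covered a region, the higher value was taken. With 1 group, no test was run. The overlap code was tested on simulated data. Named regions were the nearest to each hairpin, the 3 highest by mean of each locus and those on host starts; named genes were those overlapping a hairpin, the next miRNA genes by height and fixed lists of relatives, cell type miRNAs, pathway genes and markers. The region at the end of *Cmtm5* was named after its values were seen. The members and lists were chosen with earlier results of these data known. Alternatives were each replicate alone, a p-value limit of 1e-05, a q-value limit of 1e-10, a reciprocal overlap of 50%, windows of 10 kb and 50 kb, a distance of 5 kb in place of 1 kb, and summits inside the window. The software was Numba 0.67.0, SciPy 1.17.1, pandas 2.3.3, NumPy 2.4.6, Matplotlib 3.10.9 and Python 3.11.15.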

Additional observations from a re-analysis of the deposited data

How the results depend on the processing

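The highest mean fold enrichment near the 6 genes was 20.9 under each alternative that used both replicates, except with windows of 50 kb, where it was 42.9, and the highest value of a single list was 19.6 to 22.3. The number of shared regions was 33 to 46 when a single list was used, the higher count in replicate 1, from 28. It was 21 at a p-value limit of 1e-05, 18 when 50% of each peak had to overlap, 43 with windows of 50 kb and 8 at a q-value limit of 1e-10. The genes with a region within 1 kb, 2 of 6, became 2 to 4 with a single list and 1 at the q-value limit of 1e-10. They became 1 where the summit of replicate 1 had to lie within that distance, and 5 within 5 kb. The share of all miRNA genes, 19.9% within 1 kb, was not taken under these alternatives. A wider distance can only raise such a count for any miRNA gene. *Mir1a-1* and *Mir133a-2* had 3 regions each, in place of 9, where 50% of each peak had to overlap, and 2 each at the q-value limit. Without replicate 2, *Mir1a-2* and *Mir133a-1* each had 9 regions in place of 4, *Mir208a* 17 in place of 11 and *Mir208b* 19 in place of 10. Of 96 values for single genes, 23 moved: 17 counts of regions by more than 1.5 times, and 6 heights by more than the spread between replicates. Those heights were *Mir133a-2* at 9.64 and *Mir208a* at 7.32 with windows of 10 kb, *Mir208a* at 20.3 and *Mir208b* at 42.9 with windows of 50 kb, and *Mir208a* at 10.2 and *Mir208b* at 11.9 where 50% of each peak had to overlap. Depth limits the low peaks: a fold enrichment of 3.02 in replicate 2 rests on 11 reads. No paired analysis was possible because there is a single group, in which the numbers 1 and 2 only name the replicates.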
